A study of Drosophila melanogaster with 6 samples.

Results

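The genes described here encode nuclear subunits of the mitochondrial respiratory chain and of the ATP synthase in Drosophila melanogaster, and they were taken by symbol (ND-, Sdh, UQCR, COX and ATPsyn names) from the annotation of the array's probe sets. Where several probe sets named only that gene, the brightest on average was used, which gave 72 of the 11982 genes measured this way. Complex I contributed 32 genes, complex II 6, complex III 6, complex IV 14 and the ATP synthase 14. A symbol that is another gene's symbol followed by L marked a paralog, a duplicated copy of a subunit gene, and 21 of the 72 genes were paralogs.

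Levels were read in whole-embryo RNA on 6 arrays of the Affymetrix design Drosophila Genome 2.0, of which 3 held the wild type and 3 the CrebA null mutant, which lacks a bZIP transcription factor. The series title names the secretory pathway as its subject. All embryos passed a COPAS biosorter, which sorts whole embryos, and the mutants were recognised by the absence of the GFP of a balancer chromosome. Collections lasted 8 h and the embryos were aged for a further 11 h. One label places them in stages 11 to 15 and another in stages 11 to 17. In whole embryos, fewer cells of a type and less RNA per cell cannot be told apart. The level of CrebA itself could not serve as a check of the genotype labels, since the annotation used gives that name to 0 probe sets.

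The respiratory chain passes electrons from NADH (through complex I) and from succinate (through complex II) by way of complexes III and IV to oxygen. Complexes I, III and IV pump protons across the inner mitochondrial membrane, and the ATP synthase uses their return to make ATP. Most subunits are encoded in the nucleus, made in the cytosol and imported, while a small set is encoded by mitochondrial DNA. Import into mitochondria does not use the endoplasmic reticulum and Golgi route that the series title is about. In Drosophila, many duplicated copies of these nuclear genes are known for expression in the testis.

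All values are RMA levels on a log2 scale, and a change is the mutant mean minus the wild-type mean with the standard error (SE) of a limma fit. A gene was called at a Benjamini-Hochberg adjusted p under 0.05 over all 18769 probe sets tested. The mean level was 6.39 on each of the 6 arrays, whose small number limits precision. The labels do not state that replicates were collected separately, so the p-values cover the spread among these 6 samples, part of which may be technical. In each genotype replicate 2 stood apart from the other arrays on a first principal component that held 53.5% of the variance. Scores were -3.20, 53.5 and -9.16 in wild type 1, 2 and 3 and -24.5, 20.1 and -36.8 in mutants 1, 2 and 3. Each mutant array also scored below the wild-type array of its number, so this component differed by replicate and by genotype. Arrays of the same replicate number deviated from their genotype means together, so the result of a second fit with the replicate number as a block (the block below) is given where it changed a call or a count of calls.

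Most respiratory chain genes had slightly higher levels in the mutants, by amounts too small to be called gene by gene. The change was positive for 53 of 72 genes, with a median of 0.12, against 45.5% of all genes and a median of -0.02. The lowest change was -0.45, for ND-13B, and the highest among genes above the control level in both genotypes was 0.67, for ND-PDSW. COX7AL2 also had a fitted change of 0.67, but its wild-type level has only a bound. One gene rose and 0 fell by limma, beside 1.9% of all genes that rose, 1.02% that fell and 2.92% in either direction. At an unadjusted p under 0.05, 6 members had a positive and 1 a negative change, beside 9.92% and 7.73% of all genes. With the block 4 genes rose and 1 fell, which is 5.56% and 1.39% of the members, beside 12.6% and 9.21% of all genes and 21.8% in either direction. The 1 gene called by limma is 1.39% of the members, and a single call is too few to set that share apart from that of all genes. With the block both shares lay below those of all genes, a difference that was not tested.

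**Figure D1:**
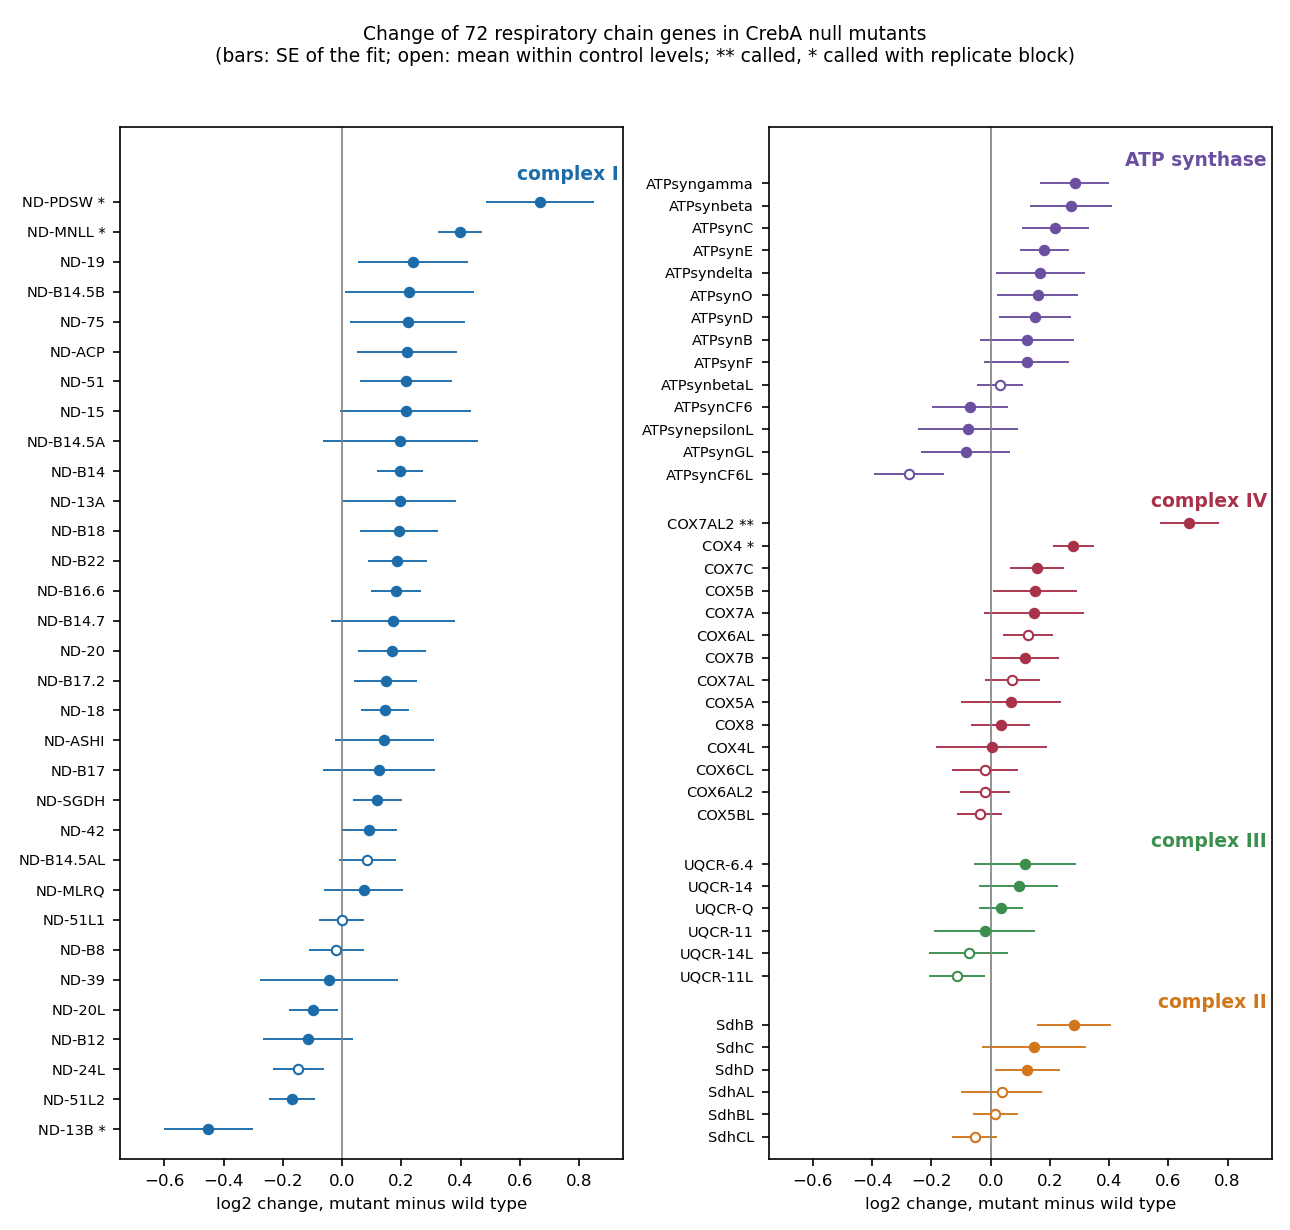
Log2 change of each of the 72 respiratory chain genes in CrebA null mutants, with the SE of the fit as a horizontal bar, ordered by change within each complex. Filled points had a mean above the foreign control level and open points did not. Most filled points lie a little to the right of 0, with ND-PDSW and ND-MNLL far to the right in complex I, COX7AL2 in complex IV, and ND-13B lowest.

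The subunit genes split by signal. As a yardstick, the highest of 17 Tag control probe sets, whose targets are foreign to the fly, lay between 4.71 and 5.28 on the 6 arrays, with a mean of 4.92. Of the 51 genes that are not paralogs, 50 had a mean above that level, and the exception was ND-B8, a matrix arm subunit of complex I, at 4.21 ± 0.13 in wild type and 4.19 ± 0.03 in mutants (SD, n = 3 each). Of the 21 paralogs, 15 had a mean within the control level, and 11 lay at or below the highest control on every array. The 51 genes other than paralogs had a median change of 0.15, with 45 positive changes, and leaving out 1 array put that median between 0.07 (without wild type 1) and 0.23 (without wild type 2). The 21 paralogs had a median of -0.02, with 8 positive. The paralog median turned positive without wild type 2 (0.02, 12 positive), without mutant 3 (11 positive) and after a shift of the arrays on ribosomal and proteasome genes (0.04, 13 positive), so it has no settled direction. Levels of the 2 classes were not tested against each other, since they come from different probe sets.

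The upward shift was small on each array pair, and array medians did not separate the genotypes. Over the 72 genes the median level was 10.77, 11.22 and 10.79 in wild type 1, 2 and 3. In mutants 1, 2 and 3 it was 11.05, 11.28 and 11.08, so wild type 2 lay above mutants 1 and 3. The counts by pair below rest on the replicate numbers, whose pairing is not settled for arrays 1 and 3. In the 46 members with a mean level of at least 10, the median difference between the mutant and the wild-type array of the same number was 0.19 for replicate 1, 0.06 for replicate 2 and 0.25 for replicate 3. In 38 of these 46 genes the mutant was higher in all 3 pairs, and in 0 it was lower in all 3. That 0 depends on the cut, since ND-13B, lower in all 3 pairs, had a mean of 9.67. Among the 56 members with a mean above the control level, 39 were higher and 3 lower in all 3 pairs. Of the 1194 array genes with a mean of at least 10, 414 (34.7%) were higher and 389 lower in all 3 pairs. Their median change was 0.00. Over the whole list 40 of 72 members were higher in all 3 pairs, beside 25.9% of all genes, and 8 were lower in all 3, beside 28.8%. Of the 46 brighter members 3 rose with the block, beside 15.6% of genes as bright. Mutant and wild-type values did not overlap in 12 members, with the mutants higher in 10 and lower in 2, beside 10.9% and 10.2% of all genes.

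Complex I, the NADH dehydrogenase, has a matrix arm that oxidises NADH and a membrane arm that pumps protons. Its 27 genes other than paralogs had a median change of 0.18, and 23 of the changes were positive. Without wild type 1 the median was 0.10, without mutant 2 it was 0.12 and without wild type 2 it was 0.30. The 3 measured core subunits of the matrix arm all had positive changes, with 0.22 (SE 0.15) for ND-51, which encodes the subunit that binds NADH, 0.22 (SE 0.19) for ND-75 and 0.17 (SE 0.12) for ND-20. ND-51 stood at 11.02, 11.47 and 11.00 in wild type replicates 1, 2 and 3 and at 11.27, 11.52 and 11.35 in the mutants, so the replicate 2 arrays of the 2 genotypes were nearly level and the other mutant arrays lay below wild type 2. None of the 3 core genes was called in either fit. Of the 14 measured membrane arm genes, 13 had positive changes, with a median of 0.18.

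ND-PDSW encodes a membrane arm accessory subunit, the counterpart of human NDUFB10. Its levels were 10.67, 11.23 and 10.77 in wild type 1, 2 and 3, and 11.43, 11.80 and 11.43 in mutants 1, 2 and 3. Every mutant array was above every wild-type array, and the 2 replicate 2 arrays were each the highest of their genotype. The means were 10.89 ± 0.30 and 11.56 ± 0.21 (SD, n = 3), a 1.59-fold difference. The change of 0.67 (SE 0.18) was not called by limma (adjusted p 0.155) and was called with the block (SE 0.08, adjusted p 0.00321). Without the replicate 2 arrays of both genotypes it was 0.71 and was called (limma adjusted p 0.0204).

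ND-MNLL, the counterpart of human NDUFB1, encodes another small subunit of the membrane arm. Wild-type levels were 11.11, 11.22 and 11.23 and mutant levels 11.58, 11.60 and 11.59. The mutant arrays lay within 0.01 of their mean (SD) and all were above the wild-type arrays. The change of 0.40 (SE 0.07) gave a limma adjusted p of 0.0591, and 0.0157 with the block. In the RefSeq gene table of Release 6 the gene CG45089 overlaps ND-MNLL, so the probe set may not tell their transcripts apart.

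ND-13B, the counterpart of human NDUFA5 in the matrix arm, moved the other way. It stood at 9.73, 10.18 and 9.77 in wild type and at 9.33, 9.59 and 9.40 in mutants. All mutant arrays were below all wild-type arrays, and the mutant was lower in every same-numbered pair, by 0.40, 0.59 and 0.37. The change of -0.45 (SE 0.15) was not called by limma (adjusted p 0.238) and was called with the block (adjusted p 0.0149). It was the 1 member that fell with the block, while the 3 core subunits of the same arm had positive changes.

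**Figure D2:**
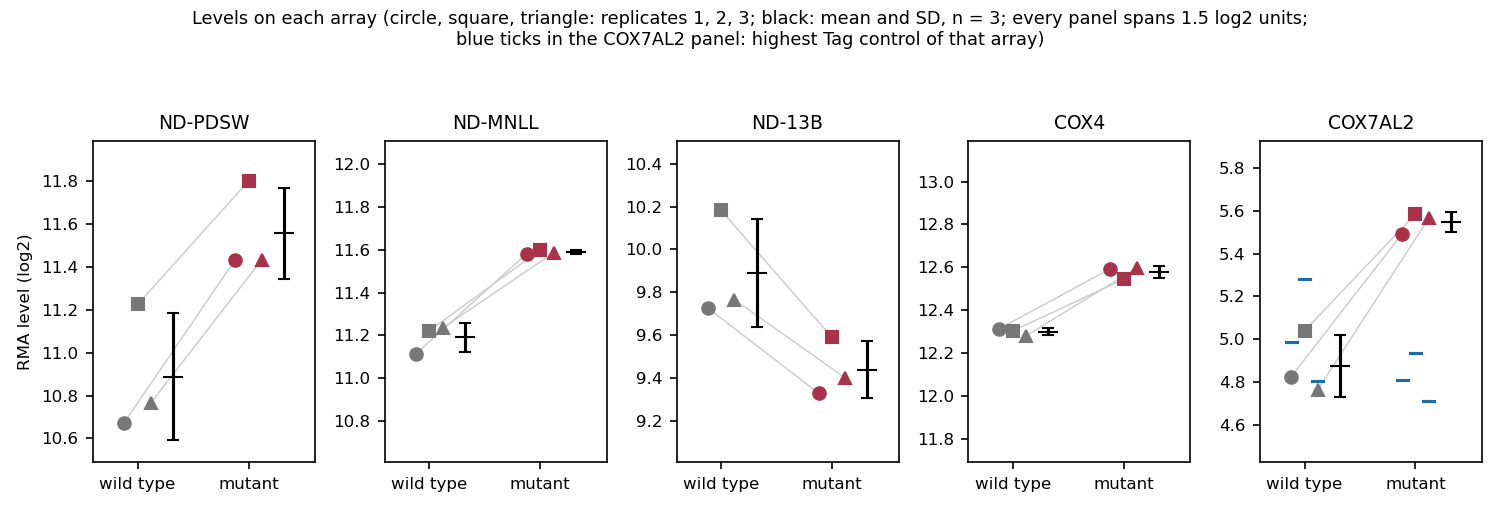
Log2 RMA levels on each array for the 5 members called in the limma fit or with the replicate block, in wild type (grey) and CrebA null mutants (red), with mean and SD (n = 3) in black and thin lines joining arrays of the same number. Mutant and wild-type arrays do not overlap in any panel, ND-13B is the gene with lower mutant levels, and the wild-type arrays of COX7AL2 lie at or below the highest Tag control.

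The remaining complex I genes differed less. Besides ND-PDSW and ND-MNLL, 5 genes had all mutant arrays above all wild-type arrays, namely ND-18, ND-B14, ND-B16.6 (the counterpart of human GRIM19), ND-B22 and ND-SGDH. Their changes were 0.12 to 0.20, and none of them was called in either fit. In all, 7 of 32 complex I genes (21.9%) had no overlap and higher mutant levels. The share was 10.9% of all genes and 12.5% of genes with a mean of at least 10. For ND-B14 the wild-type arrays stood at 10.96, 10.94 and 10.96 and the mutant arrays at 11.13, 11.09 and 11.24, a change of 0.20 (SE 0.08, limma adjusted p 0.332). ND-MLRQ, whose human counterpart NDUFA4 is now counted with complex IV, had the highest mean signal of the ND genes and a change of 0.07 (SE 0.13). Its levels were 13.19, 13.55 and 13.26 in wild type and 13.28, 13.57 and 13.36 in mutants, so the genotypes overlapped. Among the 5 complex I paralogs, ND-51L2 had the lowest change, -0.17 (SE 0.08, adjusted p 0.424). Its levels of 5.16, 5.21 and 5.07 in wild type and 4.95, 5.02 and 4.96 in mutants were close to the Tag controls and did not overlap.

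Complex II, succinate dehydrogenase, is the enzyme that the citrate cycle and the respiratory chain share, and none of its genes was called in either fit. SdhB, which encodes the iron-sulphur subunit, had levels of 10.15, 10.35 and 10.45 in wild type and 10.60, 10.43 and 10.76 in mutants. Mutant 2 lay below wild type 3, and the change was 0.28 (SE 0.13, adjusted p 0.413). The membrane anchor genes SdhC and SdhD had changes of 0.15 (SE 0.18) and 0.12 (SE 0.11). SdhC stood at 11.34, 11.81 and 11.30 in wild type and 11.46, 11.85 and 11.58 in mutants, with replicate 2 highest in each genotype. SdhCL, a paralog of SdhC, stood at 3.96, 3.98 and 3.97 in wild type and 3.93, 3.98 and 3.84 in mutants. The paralogs SdhAL, SdhBL and SdhCL had means within the control level and changes from -0.05 to 0.04.

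Complex III, the cytochrome bc1 complex, had the median change nearest to 0, but only its UQCR-named genes are counted in that. Under other symbols, given below, RFeSP had a change of 0.29, Cyt-c1 0.19 and ox 0.05. The 4 UQCR genes other than paralogs had a median change of 0.07 and a largest change of 0.12 (SE 0.17), for UQCR-6.4. UQCR-6.4 stood at 12.41, 12.90 and 12.43 in wild type and 12.54, 12.91 and 12.64 in mutants. UQCR-14 had levels of 12.70, 13.06 and 12.71 in wild type and 12.81, 13.07 and 12.88 in mutants, a change of 0.10 (SE 0.13). In both genes replicate 2 was the highest array of each genotype and the 2 replicate 2 arrays were level. The paralogs UQCR-11L and UQCR-14L had changes of -0.11 (SE 0.09) and -0.07 (SE 0.13), and both had means within the control level. UQCR-11L stood at 4.49, 4.74 and 4.53 in wild type and 4.46, 4.47 and 4.49 in mutants, and UQCR-14L at 4.82, 5.18 and 4.81 in wild type and 4.81, 5.01 and 4.77 in mutants.

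Complex IV, cytochrome c oxidase, passes electrons to oxygen. COX4, whose mammalian counterpart is the largest nuclear-encoded subunit, had levels of 12.31, 12.30 and 12.28 in wild type and 12.59, 12.54 and 12.60 in mutants. These were among the tightest replicates of the list, and the genotypes did not overlap. The means were 12.30 ± 0.02 and 12.58 ± 0.03 (SD, n = 3), and the change of 0.28 (SE 0.07) was not called by limma (adjusted p 0.122) and was just called with the block (adjusted p 0.0469). The other 6 genes that are not paralogs, COX5A, COX5B, COX7A, COX7B, COX7C and COX8, all had positive changes, of 0.03 to 0.16, and overlapping genotypes. COX5A stood at 12.60, 13.07 and 12.62 in wild type and 12.74, 13.06 and 12.70 in mutants (change 0.07, SE 0.17).

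COX7AL2, a paralog of the complex IV gene COX7A, was the member called by limma. Its levels were 4.82, 5.04 and 4.76 in wild type and 5.49, 5.58 and 5.56 in mutants. Tag controls reached higher than the gene on every wild-type array and on none of the mutant arrays. The change was 0.67 (SE 0.10, limma adjusted p 0.0321, and 0.00395 with the block), and taken against the highest controls of the wild-type arrays the mutants were at least 1.44-fold higher. The call was lost when any 1 array was left out except wild type 2 (adjusted p 0.0896 to 0.159), while the change stayed between 0.62 and 0.70. The parent gene COX7A had a change of 0.15 (SE 0.17), with 11.86, 11.47 and 11.93 in wild type and 11.92, 11.68 and 12.10 in mutants. The other 6 complex IV paralogs had changes from -0.04 to 0.13, and the lowest were COX5BL with -0.04 (SE 0.08) and COX6AL2 with -0.02 (SE 0.08). Both lay within the controls, COX5BL at 4.03, 4.09 and 4.01 in wild type and 3.97, 4.08 and 3.97 in mutants and COX6AL2 at 4.28, 4.37 and 4.24 in wild type and 4.22, 4.38 and 4.24 in mutants.

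The ATP synthase has a catalytic F1 head and shaft, a membrane part with a rotor, and a peripheral stalk that holds the head still. None of its genes was called in either fit, and 9 of the 10 that are not paralogs had positive changes. In those 9 the mutant was higher in all 3 same-numbered pairs, beside 34.7% of genes with a mean of at least 10. ATPsynbeta, the catalytic subunit, stood at 12.77, 12.58 and 12.91 in wild type and 13.02, 12.83 and 13.23 in mutants. Each mutant array was above the wild-type array of its number, by 0.25, 0.25 and 0.32, but mutant 2 lay below wild type 3. The change was 0.27 (SE 0.14, adjusted p 0.494, and 0.0515 with the block). ATPsyngamma, the shaft subunit, had a change of 0.28 (SE 0.12, adjusted p 0.357, and 0.0585 with the block), with 12.03, 12.33 and 12.03 in wild type and 12.31, 12.51 and 12.41 in mutants.

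In the membrane part, ATPsynC, the rotor ring subunit, had a change of 0.22 (SE 0.11), ATPsynE 0.18 (SE 0.08) and ATPsynF 0.12 (SE 0.14). ATPsynF, which had the highest mean signal of the ATP synthase genes, stood at 12.94, 13.35 and 13.00 in wild type and 13.09, 13.39 and 13.17 in mutants, with overlap. ATPsynC stood at 12.91, 12.80 and 13.00 in wild type and 13.15, 12.95 and 13.27 in mutants, and mutant 2 was the lowest of its genotype and below wild type 3. ATPsynE was the ATP synthase gene with no overlap, at 11.48, 11.45 and 11.59 in wild type and 11.62, 11.67 and 11.76 in mutants. The 4 peripheral stalk genes had changes from -0.07 for ATPsynCF6 (SE 0.13) to 0.16 for ATPsynO (SE 0.14). ATPsynCF6 stood at 11.98, 11.83 and 12.20 in wild type and 11.88, 11.83 and 12.09 in mutants. Of the 4 paralogs, ATPsynCF6L had the lowest change, -0.28 (SE 0.12, adjusted p 0.385), at levels of 3.97 to 4.47 that were within the controls on every array, and ATPsynGL had a change of -0.08 (SE 0.15), at 5.06, 5.40 and 4.95 in wild type and 4.93, 5.24 and 4.98 in mutants.

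The replicate 2 arrays stood apart in the members too, though not in 1 direction. Wild type 2 stood above the mean of wild type 1 and 3 by a median of 0.25 over the 72 genes, and mutant 2 above mutants 1 and 3 by 0.13, against 0.08 and 0.07 over all genes. The same medians were larger in other lists described below, at 0.59 and 0.35 for mitochondrial ribosomal protein genes. They were 0.47 and 0.42 for assembly factors, 0.30 and 0.24 for proteasome genes, 0.08 and 0.07 for cytosolic ribosomal protein genes and -0.15 and -0.21 for citrate cycle genes. The complex I genes other than paralogs had medians of 0.44 and 0.25, and the largest deviations were 0.77 and 0.52 for ND-B14.5A, followed in wild type by 0.69 for ND-39. A set of bright subunits went down instead, with COX7A at -0.43 in wild type and -0.33 in mutants, ATPsynbeta at -0.26 and -0.30, ATPsynD at -0.24 and -0.26, ATPsynCF6 at -0.26 and -0.16, and ATPsynC at -0.15 and -0.26. The 10 ATP synthase genes other than paralogs divided evenly, with 5 higher and 5 lower on the replicate 2 arrays of both genotypes.

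Across the 72 genes the deviations of wild type 2 and mutant 2 had a Pearson correlation of 0.84, and 49 genes were higher and 10 lower in both. The 2 sets of deviations come from different arrays, and the points share those arrays and the normalization. Over all genes the correlation was 0.86. What set replicate 2 apart was not tested, and marker lists that moved with it are given with the cell type markers.

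**Figure D3:**
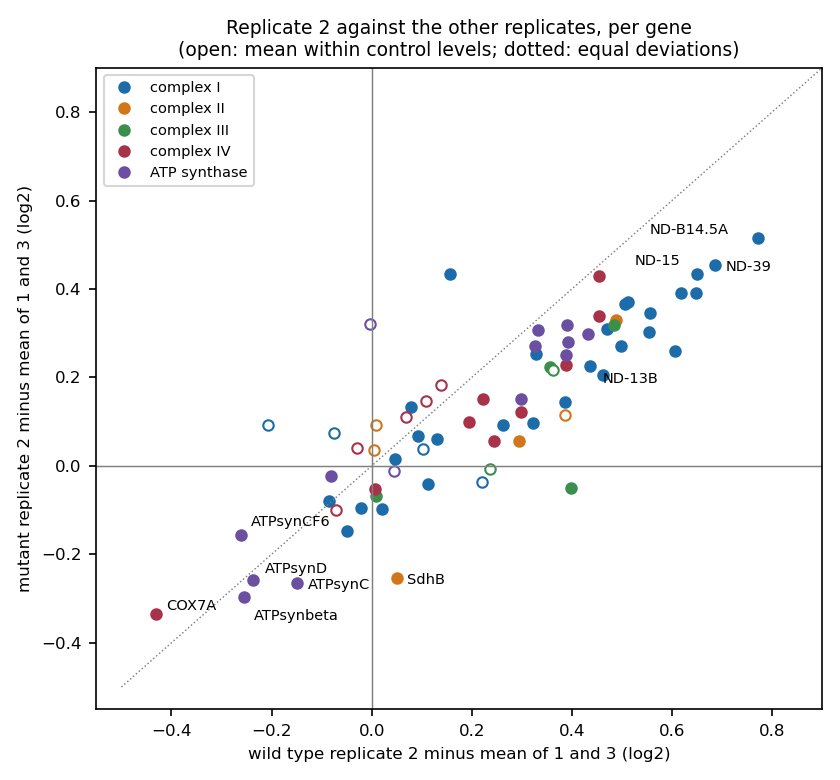
Deviation of the replicate 2 array from the mean of replicates 1 and 3 for each of the 72 genes, in wild type (horizontal, log2) and in mutants (vertical, log2), coloured by complex. Most complex I genes lie at the upper right, and COX7A, ATPsynbeta, ATPsynC, ATPsynD and ATPsynCF6 lie at the lower left.

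Several members were measured by more than 1 single-gene probe set, and these did not always give the same change. For ATPsyngamma, the second probe set stood at 11.89, 12.11 and 11.74 in wild type and 11.85, 11.98 and 11.86 in mutants, a change of -0.02 (SE 0.12) beside 0.28 for the chosen one. For ND-ACP, the mitochondrial acyl carrier protein of complex I, the chosen probe set and another had changes of 0.22 (SE 0.17) and 0.21 (SE 0.19), while the remaining one had 0.53 (SE 0.16), not called by limma (adjusted p 0.178) and called with the block (adjusted p 0.0134). For ND-B17 the changes were 0.12 (SE 0.19) and 0.37 (SE 0.22), the latter called with the block (adjusted p 0.0389). The 2 probe sets of ATPsynbeta gave 0.27 and 0.19. COX7B and COX7C each had a further probe set within the control level. Another 4 probe sets list a matching symbol together with a second gene and were not used.

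Subunits whose genes carry other symbols were measured for 8 of 10 listed genes, and none was called in either fit. The median change was 0.11, with 5 of 8 positive, and ran from 0.01 (without mutant 2) to 0.18 (without mutant 1) when 1 array was left out. The gene blw encodes the alpha subunit that pairs with ATPsynbeta in the F1 head, and it stood at 12.51 ± 0.13 in wild type and 12.75 ± 0.12 in mutants (SD, n = 3) with no overlap, a change of 0.24 (SE 0.11). RFeSP, the Rieske iron-sulphur protein of complex III, had a change of 0.29 (SE 0.17), Cyt-c1 of the same complex 0.19 (SE 0.14) and cype of complex IV 0.18 (SE 0.07). The complex III gene ox had 0.05 (SE 0.21), the complex IV gene levy -0.03 (SE 0.16), and sun, the epsilon subunit of the ATP synthase, -0.12 (SE 0.11). The paralog knon was within the control level, with a change of -0.10 (SE 0.09).

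Genes that serve the chain from outside gave mixed values, and none was called by limma apart from 1 mitochondrial ribosomal protein gene. All 9 measured assembly factor genes had positive changes, with a median of 0.23 and 0 called with the block. That median was 0.09 without wild type 1 and 0.38 without wild type 2. The brightest were Sirup, with 0.15 (SE 0.54), and Scox, a copper chaperone of complex IV, with 0.27 (SE 0.21). The 11 measured genes of the citrate cycle and pyruvate oxidation had a median change of 0.33 (0.17 without mutant 3 and 0.46 without mutant 2), with 9 positive, and with the block 6 rose and 1 fell, beside 12.6% and 9.21% of all genes. Ogdh, a subunit of 2-oxoglutarate dehydrogenase, had 0.52 (SE 0.10, limma adjusted p 0.0594, and 0.00607 with the block), muc, of the pyruvate dehydrogenase complex, 0.47 (SE 0.15), and the isocitrate dehydrogenase subunit gene Idh3b -0.72 (SE 0.17, adjusted p 0.00688 with the block).

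The 8 carrier and channel genes of the mitochondrial membranes had a median change of 0.11. With the block the phosphate carrier gene Mpcp1 rose, by 0.61 (SE 0.13), and colt, a carnitine carrier gene, fell (-0.34, SE 0.22). Of 8 genes that regulate mitochondrial DNA or nuclear mitochondrial genes, with a median of -0.04, Ets97D, whose product is also called Delg, fell with the block (-0.74, SE 0.31). Of 69 mitochondrial ribosomal protein genes 54 had positive changes, with a median of 0.10. That median rested on single arrays, at -0.0027 with 34 positive without wild type 3, 0.0075 with 35 positive without mutant 2, 0.03 without wild type 1 and 0.29 with 68 positive without wild type 2. The gene mRpL48 rose in the limma fit, by 0.71 (SE 0.12, adjusted p 0.0475). With the block 7 rose and 1, mRpS31, fell (-0.88, SE 0.24), beside 12.6% and 9.21% of all genes. Cytosolic ribosomal protein genes had a median of -0.01 over 41 genes and proteasome genes -0.06 over 40, with 0 called by limma in either list. At an unadjusted p under 0.05 the counts were 1 of the ribosomal protein and 2 of the proteasome genes, and with the block 0 rose and 3 and 1 fell.

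**Figure D4:**
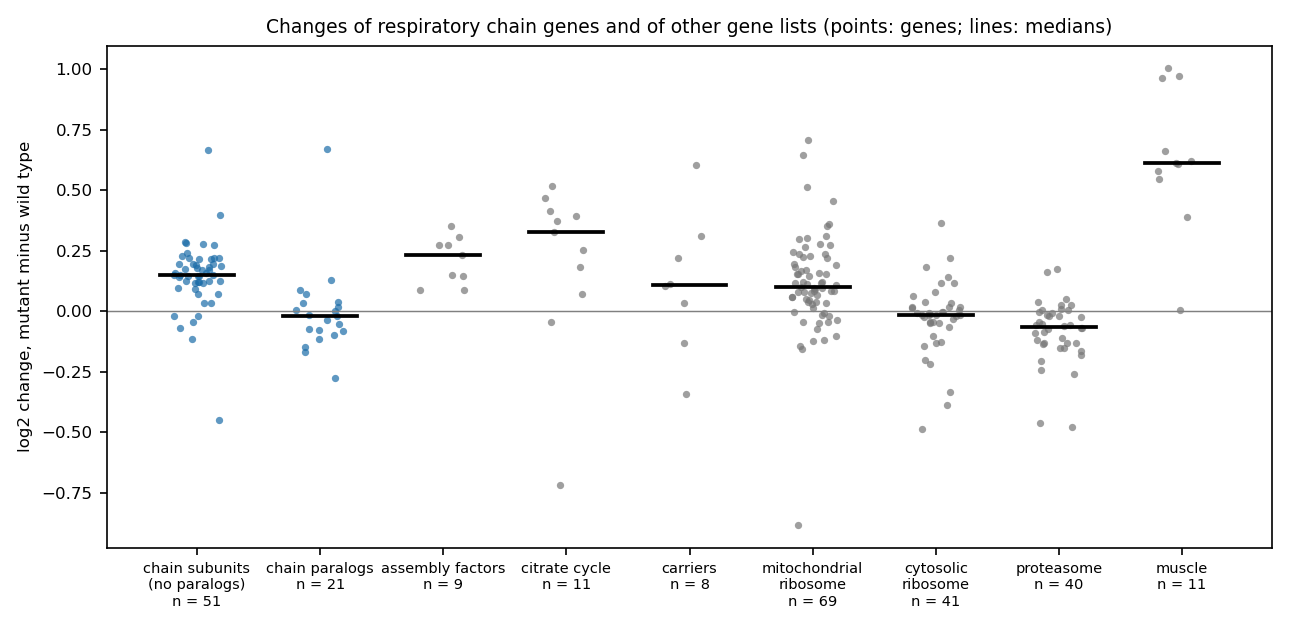
Log2 change of each gene (points) in the respiratory chain subunits, their paralogs and 7 other gene lists, with the median of each list as a line. The subunits cluster just above 0 around 0.15, the paralogs around -0.02 and the muscle genes around 0.61, and cytosolic ribosome and proteasome genes lie just below 0.

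Markers of several cell types had positive changes too, with the highest median in the muscle list. Muscle is rich in mitochondria, and all 11 measured muscle genes had positive changes, with a median of 0.61. None was called by limma, 3 had an unadjusted p under 0.05, and 8 rose with the block, among them Zasp66, a Z-disc gene, with 1.00 (SE 0.62), Act87E, a muscle actin, with 0.97 (SE 0.47), and Prm, paramyosin, with 0.66 (SE 0.17). This compares with 12.6% of all genes that rose with the block. Per array, the median level of the 11 genes was 10.99, 10.30 and 11.16 in wild type 1, 2 and 3 and 11.51, 10.94 and 11.79 in mutants. It was thus lowest on the replicate 2 arrays, on which most complex I genes were highest. The median change was 0.31 without wild type 2, 0.82 without mutant 2 and 0.57 without both. One muscle gene, fln, had a mean within the control level.

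Other marker lists also had positive medians. The median change was 0.26 for 10 neuronal genes (8 positive) and 0.46 for 8 midgut genes (5 positive). It was 0.33 for 7 genes listed for the Malpighian tubules and hindgut (5 positive), a list that is not confined to markers of these organs. It was 0.01 for 6 fat body genes and 0.01 for 11 germline and testis genes, of which 1 had a mean above the control level. With the block 3 neuronal, 4 midgut, 4 tubule and hindgut and 1 fat body gene rose, and 2 midgut genes and 1 fat body gene fell, beside 12.6% and 9.21% of all genes.

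In the limma fit, and also with the block, the midgut genes alphaTry, 1.28 (SE 0.16), and Jon25Bi, 0.63 (SE 0.08), rose and mex1, -3.84 (SE 0.22), and Jon44E, -2.22 (SE 0.35), fell. VhaSFD of the tubule list, a vacuolar proton pump gene and not a marker of tubules alone, rose in both fits (0.62, SE 0.10). Mtp of the fat body list fell in both fits (-1.04, SE 0.18). The neuronal genes that rose with the block alone were ChAT, which makes acetylcholine, 0.38 (SE 0.14), the vesicular transporter gene VAChT, 0.90 (SE 0.41), and the calcium channel gene cac, 0.76 (SE 1.06). The fat body gene FASN1, a fatty acid synthase, also rose with the block alone, 0.80 (SE 0.36).

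Leaving out 1 array moved these medians too, to between 0.07 (without mutant 3) and 0.41 (without mutant 2) for the neuronal, 0.21 (without wild type 2) and 0.51 (without wild type 1) for the midgut, and 0.21 (without wild type 2) and 0.42 (without wild type 1) for the tubule and hindgut genes. The fat body median ran from -0.23 (without wild type 2) to 0.17 (without mutant 2).

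The array medians of the neuronal and fat body lists, like those of the muscle list, were lowest on replicate 2. Single genes differed, since 3 of 10 neuronal and 2 of 6 fat body genes were higher on wild type 2 than the mean of wild type 1 and 3. On mutant 2 the count was 0 in both lists. Neuronal array medians were 6.07 in wild type and 6.48 in mutants on replicate 2, against 7.22 to 7.59 on the other arrays. Fat body array medians were 7.31 and 8.09, against 8.38 to 8.80. Tubule and hindgut medians were also lowest on replicate 2, at 5.64 and 5.89 against 6.03 to 6.41. Midgut medians were so by less, at 6.97 and 6.84 against 7.08 to 7.16. The lipophorin gene apolpp, a fat body marker, deviated by -1.65 in wild type 2 and -1.15 in mutant 2. The part of muscle or of any other cell type in the respiratory chain values was not tested.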

How the data were processed

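Levels were measured on 6 arrays, and the deposited table holds log2 expression values for 18952 probe sets. Per the submitters' processing notes the authors used RMA and Partek, with no version, and the log base was inferred from the range (2.81 to 14.53). After 183 control probe sets were set aside, 18769 were tested, and the platform annotation gave 13647 of them 1 gene, 402 several and 4720 none. Members were matched by gene ID to the RefSeq table of Release 6 for 72 of 72 genes. No genome build is given in the sources used here, so no coordinates are printed. Sequences were not used here.

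The test was limma (version 3.58.1, R 4.3.3), with lmFit and then eBayes, two-sided, without further normalization or filter. The fit was tested on simulated arrays with independent noise and added changes larger than those of the members. That test therefore does not cover small changes or the pattern shared by the replicate 2 arrays. The members, the gene lists, the complex classes and the tests were chosen with earlier results of these data known, and the complex I and ATP synthase classes after the files were seen. All members could be named, and values per array were given for members called in either fit, for the 2 highest and 2 lowest changes per complex and for the highest mean signal, with a few added after the values were seen. From other lists up to 3 called genes were named. Of 127 listed symbols, 95 were found on the array under that symbol and 2 as synonyms, and 30 were not matched. Figures were drawn with matplotlib 3.10.9.

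The titles give both genotypes the same replicate numbers, without saying what a number stands for. Taking each array's deviation from its genotype's mean, the mutant and wild-type arrays had correlations of 0.64, 0.85 and 0.56 over probe sets for replicates 1, 2 and 3, all over the bar of 0.1 for treating the numbers as pairs. Arrays 1 and 3 also passed that bar when crossed (0.57 and 0.37). Deviations within a genotype sum to 0, so arrays 1 and 3 are drawn together wherever replicate 2 stands apart. The bar therefore cannot settle the pairing of arrays 1 and 3.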

Additional observations from a re-analysis of the deposited data

How the results depend on the processing

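The number of called members depended on the variance model and the arrays. With the replicate block 4 members rose and 1 fell, with array weights 6 and 2, and without the replicate 2 arrays of both genotypes 2 rose. Leaving out 1 array gave 0 to 1 risen and 0 fallen members. No member was called after shifting arrays to the same median, after shifting them on ribosomal and proteasome genes, or without variance moderation, with 0 risen in each. The other alternatives, which were the filter on dim probe sets, quantile normalization, the intensity trend and the mean of a gene's probe sets, gave 1 risen and 0 fallen. The risen gene was COX7AL2 in each. It passed the dim filter, a mean over 6 arrays above 4.92, through its mutant arrays (mean 5.55, against 4.88 in wild type). Its call under that filter is therefore no separate support.

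The median change of the 72 members was positive in all 16 alternatives, from 0.04 (without mutant replicate 2) to 0.18 (without wild type replicate 2). So was that of every complex but complex III. The replicate block, the intensity trend and the fit without variance moderation leave the fitted changes as they are, so their medians could not differ. Each shift of the arrays moved the changes of all genes by the same amount. Complex III ran from -0.06 to 0.10 and was negative in 4. The ATP synthase median was 0.073 after shifting arrays to the same median, and leaving out 1 array put it between 0.051 and 0.173. The complex II median ran from 0.021 to 0.195 without 1 array. COX7AL2 kept its direction in the 15 alternatives fitted for it and lost its call in 8, with limma adjusted p from 0.00181 to 0.225. The causes were not tested. Small changes are limited by 3 arrays per genotype, and paralogs by signals near the foreign controls.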

Other observations

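The RefSeq gene order of Release 6 places p115, a Golgi tether gene of the secretory pathway, next to ND-MNLL, and the neighbours had opposite changes. The gene p115 had means of 8.75 ± 0.22 in wild type and 8.18 ± 0.29 in mutants (SD, n = 3), a change of -0.57 (SE 0.18, limma adjusted p 0.223, and 0.00745 with the replicate block), beside 0.40 for ND-MNLL. The measured neighbours of ND-13B, ND-PDSW, COX4 and COX7AL2 had changes of -0.19 to 0.46, and none was called in either fit. These neighbours were looked up after the values of the members were seen.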
